A study of Saccharomyces cerevisiae with 12 samples.

Results

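The genes described here are the 6 a-specific and the 4 alpha-specific mating genes of Saccharomyces cerevisiae, 10 of the 7127 features in each count table. They were taken by identifier from the classical lists of genes read in only 1 mating type. The a-specific genes were MFA1 (YDR461W), MFA2 (YNL145W), STE2 (YFL026W), STE6 (YKL209C), BAR1 (YIL015W) and AGA2 (YGL032C). The alpha-specific genes were MF(ALPHA)1 (YPL187W), MF(ALPHA)2 (YGL089C), STE3 (YKL178C) and SAG1 (YJR004C). All 10 were found in every table, all 10 passed the filter on low counts, and none overlaps another RefSeq gene.

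RNA was sequenced from 12 yeast cultures in 4 groups of 3 biological replicates. H3i is a strain made from YEF473A in which the histone H3 gene HHT1 was deleted and the other H3 gene, HHT2, was put under the GAL1 promoter, so that galactose keeps it on and glucose shuts it off. The H3i YPD group was grown in galactose medium and moved to glucose medium, the H3i YPGal group stayed in galactose, and the WT YPD and WT YPGal groups are the wild type under the same regimes. The labels give YEF4734A as the strain of all 6 WT cultures and YEF473A as the parent of H3i, and do not say whether these names stand for 1 strain. No source used here gives the hours spent in YPD.

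Haploid yeast cells mate as a cells or alpha cells, and each type expresses its own pheromone, its receptor for the other type's pheromone, and its own agglutinin. In alpha cells the MAT locus makes alpha1, which with Mcm1 turns the alpha-specific genes on, and alpha2, which with Mcm1 turns the a-specific genes off. The a-specific genes are on in a cells with Mcm1 alone, and both classes are off in a/alpha diploids, where a1 and alpha2 also repress haploid genes. Spare copies of both mating types lie at HML and HMR, where Sir proteins and deacetylated histones keep them silent.

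The upstream sequences of the members show the elements by which the mating types are told apart. The end sequence of the operator bound by alpha2 and Mcm1, CATGTAA, was searched for on both strands in the 400 bases before each start codon. It was found upstream of 6 of 6 a-specific genes and of 1 of 4 alpha-specific genes, SAG1, and in 4.90% of 6020 such windows. The sites of the a-specific genes are shown because the repressor distinguishes this class; each is read along the gene's strand of the RefSeq R64 assembly, with the match in capitals (TTACATG is CATGTAA on the other strand; of the 2 matches of BAR1 the one shown lies farther from the gene).
MFA1 (chrIV:1384947-1384991, + strand): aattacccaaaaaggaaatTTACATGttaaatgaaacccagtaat
MFA2 (chrXIV:352168-352212, + strand): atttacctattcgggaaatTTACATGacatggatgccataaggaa
STE2 (chrVI:82332-82376, + strand): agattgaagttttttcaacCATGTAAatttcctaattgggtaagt
STE6 (chrXI:46482-46526, - strand): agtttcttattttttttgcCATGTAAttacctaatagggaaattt
BAR1 (chrIX:322059-322103, + strand): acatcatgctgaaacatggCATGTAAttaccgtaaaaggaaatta
AGA2 (chrVII:437106-437150, - strand): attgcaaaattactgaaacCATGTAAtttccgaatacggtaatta

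The core of the Q box bound by alpha1, CAATGAC, was found upstream of 2 of 4 alpha-specific genes, STE3 and SAG1, of 0 of 6 a-specific genes, and in 4.40% of the windows. These sites are shown because the activator acts through them, with the match in capitals on the strand opposite to the gene.
STE3 (chrXI:114941-114985, - strand): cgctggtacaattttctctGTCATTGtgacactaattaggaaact
SAG1 (chrX:445193-445237, - strand): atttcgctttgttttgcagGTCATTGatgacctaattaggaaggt

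The pheromone response element bound by Ste12, TGAAACA, was found upstream of 6 of 6 a-specific genes, of 1 of 4 alpha-specific genes, MF(ALPHA)2, and in 9.85% of the windows. A match is a description of these letters and not of a bound site, and no motif shares letters with another in the sites found; the window of BAR1 also holds a pheromone response element.

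Each pheromone is encoded by a pair of related genes, which matters for counting. The coding sequences of MFA1 (111 bases) and MFA2 (117 bases) are shown because reads could be shared between them; they were identical at 79.6% of 108 aligned bases, and the longest run in common, in capitals, was 11 bases.
MFA1 (chrIV:1385176-1385286, + strand): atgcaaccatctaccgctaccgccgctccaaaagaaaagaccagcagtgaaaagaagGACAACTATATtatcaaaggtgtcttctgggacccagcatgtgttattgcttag
MFA2 (chrXIV:352414-352530, + strand): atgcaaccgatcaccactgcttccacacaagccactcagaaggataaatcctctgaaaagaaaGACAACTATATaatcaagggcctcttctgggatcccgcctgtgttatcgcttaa
MF(ALPHA)1 and MF(ALPHA)2 were identical at 71.6% of 363 aligned bases, with a longest common run of 23 bases, and how the authors' counting treated reads that fit both genes of a pair is not stated in the labels.

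Libraries of replicate 1 held 2176277 to 2525223 gene counts, those of replicate 3 held 8649749 to 11628815, and those of replicate 2 held 40950610 to 52278567. The strain labels held for the H3 genes: HHT1 was at 0 to 3.34 CPM (counts scaled to 1000000 gene counts per library) in the 6 H3i libraries, against 634 to 1329 CPM in the 6 WT libraries. HHT2 was at 14.7 to 30.3 CPM in H3i YPD, against 2284 to 4353 CPM in H3i YPGal. Replicate 2 has high totals, yet genes that the other replicates read well are near 0 in some of its libraries, AGA2, MFA2 and STE6 among them, so its values are given beside the rest and the fits below use the 8 libraries of replicates 1 and 3.

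Before any comparison, the members separated both WT libraries of replicate 3 from the other 10 libraries. There the 4 alpha-specific genes took 98.6% of the members' counts in YPD and 98.2% in YPGal, with exact 95% intervals of 98.5% to 98.8% and 98.0% to 98.3%. In the other WT libraries the share was 1.60% (replicate 1) and 0.968% (replicate 2) in YPD, against 6.99% and 9.01% in YPGal. Both WT libraries of replicate 3 thus had the alpha pattern of mating genes and the other 4 WT libraries the a pattern. HIS3 and TRP1 were read in these libraries and at 0 counts in the other 10, and LEU2, URA3 and LYS2 were at 0 counts in these libraries and read in the other 10. Whether strain, sample or another difference separates these libraries cannot be told apart from the labels, so results that rest on them are given with and without them. Replicate 3 also had another RNA extraction and library kit in all 4 groups, and the H3i libraries of replicate 3 had the a pattern.

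In H3i cultures, which had the a pattern in YPGal, the alpha-specific genes were higher in YPD in every replicate, while the a-specific genes stayed on. Of the members' counts, alpha-specific genes took 28.1%, 8.27% and 24.0% in H3i YPD (replicates 1 to 3), against 4.32%, 1.19% and 4.40% in H3i YPGal. The exact 95% intervals, which cover counting error only, were 26.9% to 29.5%, 8.05% to 8.50% and 23.5% to 24.5% in H3i YPD, against 3.73% to 4.98%, 1.10% to 1.29% and 4.11% to 4.70% in H3i YPGal. The H3i groups did not overlap, and every H3i YPD library lay below both WT libraries of replicate 3. H3i YPD replicate 2, at 8.27%, also lay below WT YPGal replicate 2, which had the a pattern and stood at 9.01%. These are bulk cultures: a few cells with much alpha-specific RNA and many cells with little cannot be told apart.

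**Figure D1:**
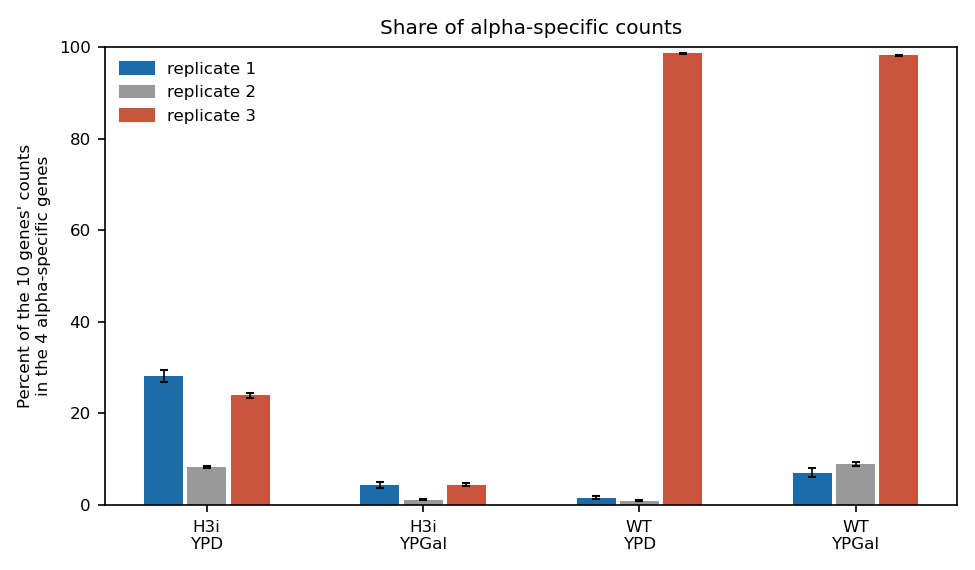
Percent of the counts of the 10 mating genes that lay in the 4 alpha-specific genes (vertical axis, from 0), by group, with 1 bar per library and exact 95% binomial intervals. H3i YPD libraries stood at 8.27% to 28.1%, H3i YPGal libraries at 1.19% to 4.40%, and both WT libraries of replicate 3 above 98%. The other WT libraries stood at 0.968% to 9.01%, the highest above the lowest H3i YPD library.

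MF(ALPHA)1 encodes the main precursor of alpha-factor, the pheromone of alpha cells. It was at 53.8, 0.147 and 105.3 CPM in H3i YPD replicates 1, 2 and 3, against 0.417, 0.0669 and 3.19 CPM in H3i YPGal. WT YPD replicates had 0, 0 and 2325 CPM, against 0.792, 0.0447 and 2464 CPM in WT YPGal; the 0 counts allow up to 1.30 CPM in replicate 1 and 0.0574 CPM in replicate 2. Within each replicate number H3i YPD was the higher of the H3i libraries, but replicate 2 rests on 6 counts against 3, and replicate 1 on 117 counts against 1.

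MF(ALPHA)2 encodes the minor alpha-factor precursor. Its levels were 39.1, 40.8 and 54.6 CPM in H3i YPD, against 10.02, 11.5 and 6.18 CPM in H3i YPGal. In WT it was at 7.78, 7.38 and 638 CPM in YPD, against 9.11, 25.8 and 183 CPM in YPGal. The 3 H3i YPD libraries all lay above the 3 H3i YPGal libraries, and of the alpha-specific genes this was the one with the smallest spread between H3i YPD replicates.

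STE3 encodes the receptor by which alpha cells sense a-factor. H3i YPD had 120, 35.5 and 165 CPM, against 5.01, 1.03 and 18.4 CPM in H3i YPGal. WT YPD had 2.59, 0.344 and 601 CPM, against 9.504, 0.582 and 354 CPM in WT YPGal. The H3i groups did not overlap, and outside replicate 3 no WT library reached 10 CPM.

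SAG1 encodes alpha-agglutinin, the cell wall protein by which alpha cells stick to a cells. It stood at 388, 41.9 and 221 CPM in H3i YPD, against 60.1, 2.43 and 54.3 CPM in H3i YPGal. The WT values were 32.0, 3.003 and 510 CPM in YPD, against 57.8, 6.80 and 189 CPM in YPGal. Here the H3i groups overlapped, since replicate 2 in YPD lay below the other replicates in YPGal, although within each replicate number the YPD library was the higher.

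Within replicate numbers the ratio of H3i YPD to H3i YPGal was 129, 2.19 and 33.0 for MF(ALPHA)1 and 3.90, 3.54 and 8.84 for MF(ALPHA)2. For STE3 it was 23.9, 34.6 and 8.93, and for SAG1 6.45, 17.2 and 4.07. The exact 95% intervals of the MF(ALPHA)1 ratios in replicates 1 and 2, from counting error only, ran from 22.7 to 5130 and from 0.467 to 13.5. All 4 genes were thus higher in 3 of 3 replicates, with a median log2 ratio of 3.64, 2.97 and 3.15 in replicates 1, 2 and 3. These ratios use library totals, and a fit of 8 libraries on such totals had a median of 0.42 over all genes. The share of all genes higher in 3 of 3 replicates was not counted. Set against WT YPD of replicate 3, which has the alpha pattern, H3i YPD reached 2.31%, 0.0063% and 4.53% of its MF(ALPHA)1 level. For SAG1 the share was 76.1%, 8.22% and 43.4%, for STE3 19.97%, 5.91% and 27.4%, and for MF(ALPHA)2 6.13%, 6.40% and 8.56%. In YPD of replicates 1 and 3 the agglutinin and receptor genes thus stood nearer to the alpha pattern than both pheromone genes did. In replicate 2 STE3 lay below MF(ALPHA)2. Set against WT YPGal of replicate 3, H3i YPGal was already at 31.8%, 1.29% and 28.7% for SAG1. For MF(ALPHA)2 it was at 5.47%, 6.29% and 3.37%, near its shares in YPD in replicates 1 and 2. For STE3 it was at 1.41%, 0.290% and 5.20%, and for MF(ALPHA)1 at 0.0169%, 0.00272% and 0.129%. This is a description that compares strains and cultures.

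The a-specific genes were present in both H3i groups. MFA1, which encodes a precursor of a-factor, had 133, 103 and 82.4 CPM in H3i YPD, against 133, 101 and 76.8 CPM in H3i YPGal. In WT it had 173, 77.9 and 1.30 CPM in YPD, against 104.5, 69.6 and 1.97 CPM in YPGal. The H3i libraries of a replicate number differed by a ratio of at most 1.07, and both WT libraries of replicate 3 were far below the rest.

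MFA2, the other a-factor precursor gene, had 129, 24.2 and 304 CPM in H3i YPD, against 248, 191 and 474 CPM in H3i YPGal. WT YPD had 386, 0.956 and 3.56 CPM, against 166, 0.380 and 3.93 CPM in WT YPGal. In H3i it was lower in YPD in all 3 replicate numbers, by 0.94, 2.98 and 0.64 on the log2 scale, although the groups overlapped.

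STE2 encodes the receptor by which a cells sense alpha-factor. It stood at 490, 500 and 707 CPM in H3i YPD, against 575, 601 and 674 CPM in H3i YPGal. The WT values were 900, 663 and 14.6 CPM in YPD, against 255, 115 and 16.5 CPM in YPGal. The H3i groups overlapped, with log2 ratios of -0.23, -0.27 and 0.07, while in WT replicates 1 and 2 the YPD library was the higher, by 1.82 and 2.53.

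STE6 encodes the ABC transporter that exports a-factor. H3i YPD had 239, 88.2 and 227 CPM, against 364, 2.03 and 298 CPM in H3i YPGal. WT YPD had 560, 1.17 and 22.6 CPM, against 297, 2.30 and 22.7 CPM in WT YPGal. In replicate 2 it was near 0 in 3 of 4 libraries, so only replicates 1 and 3 inform the H3i ratio, which was 0.656 and 0.763.

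BAR1 encodes the secreted protease with which a cells degrade alpha-factor. It had 476, 588 and 349 CPM in H3i YPD, against 264, 352 and 175 CPM in H3i YPGal. In WT it had 517, 355 and 12.6 CPM in YPD, against 152, 148 and 12.1 CPM in YPGal. BAR1 was higher in YPD in both strains in replicates 1 and 2, with ratios of 1.80 and 1.67 in H3i and 3.40 and 2.41 in WT.

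AGA2 encodes the binding subunit of a-agglutinin. Its levels were 66.6, 8.47 and 61.1 CPM in H3i YPD, against 89.3, 0 and 86.4 CPM in H3i YPGal. WT YPD had 69.6, 0.0191 and 1.30 CPM, against 52.7, 0 and 1.39 CPM in WT YPGal. The 0 in H3i YPGal replicate 2 allows up to 0.0669 CPM; replicates 1 and 3 gave ratios of 0.746 and 0.707.

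**Figure D2:**
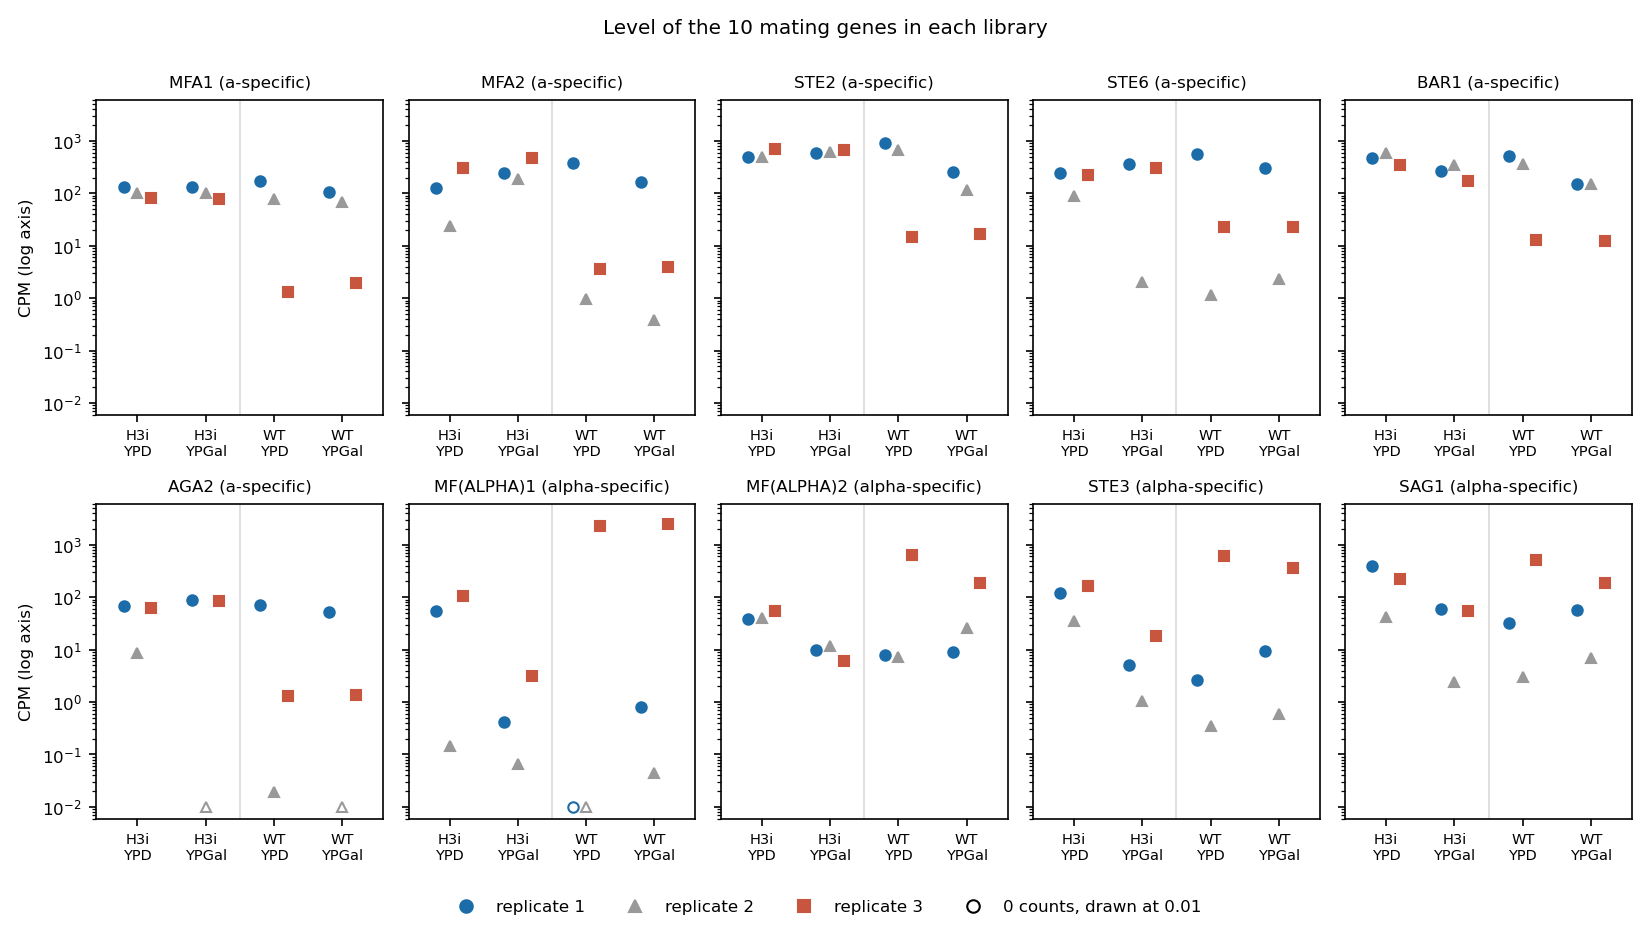
CPM of each of the 10 genes in each library (vertical axis, log scale), with groups along the horizontal axis and replicates by colour and shape; open symbols are 0 counts. The alpha-specific genes lie higher in H3i YPD than in H3i YPGal within each replicate number, and WT replicate 3 is low for a-specific and high for alpha-specific genes.

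Levels per kilobase of gene length allow the members to be ranked. In H3i YPD the mean level of replicates 1 and 3 (± SD, n = 2) was 1848 ± 1058 CPM per kb for MFA2, 969 ± 321 for MFA1 and 462 ± 118 for STE2. Next came AGA2 at 242 ± 14.7, BAR1 at 234 ± 50.6, MF(ALPHA)1 at 160 ± 73.1, SAG1 at 156 ± 60.4, MF(ALPHA)2 at 129 ± 30.3, STE3 at 101 ± 22.4 and STE6 at 60.2 ± 2.16 CPM per kb. Neighbours differed by less than the larger of their SDs between MFA2 and MFA1, between AGA2 and BAR1, and from MF(ALPHA)1 to STE3. In H3i YPGal the order of the a-specific genes was MFA2, MFA1, STE2, AGA2, BAR1 and STE6, from 3083 ± 1368 to 85.4 ± 12.1 CPM per kb. All 4 alpha-specific genes were below them there, from SAG1 at 29.3 ± 2.10 to MF(ALPHA)1 at 3.62 ± 3.94 CPM per kb. STE6, last in H3i YPD, was therefore below all 4 alpha-specific genes there and above all 4 in H3i YPGal. In WT YPD replicate 3 MF(ALPHA)1 led at 4669 CPM per kb, and in WT YPD replicate 1 MFA2 led at 3301 CPM per kb.

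The medium comparison within H3i was tested across all genes. The planned edgeR quasi-likelihood fit of 8 libraries, with a term for the replicate and kit that both strains share, tested 6354 genes. It called 21.4% of all genes higher and 22.2% lower in H3i YPD than in H3i YPGal at a Benjamini-Hochberg adjusted p of 0.05. Of the 10 members it called 1, MF(ALPHA)1, higher by 10.32 ± 3.55 (log2, SE; adjusted p = 0.0469). This estimate lay above the log2 ratios of CPM within replicates 1 and 3, 7.01 and 5.04, and is not read as the size of the rise. That call was kept without H3i YPD replicate 1 or H3i YPD replicate 3 and lost without any other single library, with edgeR adjusted p from 0.0587 to 0.388. STE3, at 4.47 ± 1.58, missed the threshold (adjusted p = 0.0518 by edgeR). By construction a replicate term shared by both strains leaves the difference between WT replicates 1 and 3 in the residual, and the standard errors of the 4 alpha-specific genes ran from 0.94 to 3.55.

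With a term for each strain-and-replicate pair, so that each H3i YPD library was set against its own H3i YPGal partner (2 residual degrees of freedom), 6 members were called. All 4 alpha-specific genes rose, against 21.3% of all genes called higher: MF(ALPHA)1 by 5.05 ± 0.56 (adjusted p = 0.00184), STE3 by 3.31 ± 0.50 (0.00327), MF(ALPHA)2 by 2.25 ± 0.47 (0.00901) and SAG1 by 1.95 ± 0.45 (0.0118), all by edgeR on the log2 scale. Of the 6 a-specific genes 2 fell, against 21.7% of all genes called lower. MFA2 fell by 1.19 ± 0.35 (edgeR adjusted p = 0.0290) and AGA2 by 0.86 ± 0.28 (0.0397). MFA1 (-0.34 ± 0.31), STE2 (-0.48 ± 0.49), STE6 (-0.89 ± 0.32, edgeR adjusted p = 0.0541) and BAR1 (0.52 ± 0.41) were not called. The median over the alpha-specific genes was 2.78 and over the a-specific genes -0.67, beside 0.01 over all genes tested. In the planned fit, which did not call them, MFA2 was at -1.01 and AGA2 at -0.84. Their sign in that fit depended on H3i YPGal replicate 3, without which they were at 3.11 and 1.73. When H3i replicate 1 or H3i replicate 3 was left out of the fit with pairs, 0 of 10 members had a sign opposite to the planned one. Without both WT libraries of replicate 3 the planned fit called 7 members, the same 4 higher and MFA2, STE6 and AGA2 lower, beside 24.6% of all genes higher and 24.5% lower.

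The level of a gene moved with the direction of its change in H3i. Of the 2631 genes under 50 CPM in WT replicate 1, 35.5% were called higher and 4.83% lower in the planned fit, and of the 2214 genes at 100 CPM or more 6.28% were called higher and 45.6% lower. In WT replicate 1 the 4 alpha-specific genes averaged 0.396 to 44.9 CPM and the 6 a-specific genes 61.1 to 577 CPM. The part of this general pattern in the members' changes was not tested. When library totals replaced TMM factors, the median over all genes moved to 0.42, calls of higher genes were 69.7% of all calls in place of 49.2%, and MFA1 (0.09) and STE2 (0.02) changed sign; the 4 alpha-specific genes stayed positive, and MFA2 (-0.67) and AGA2 (-0.48) stayed negative.

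In WT the direction of both classes differed between the replicates. In replicate 1, 6 of 6 a-specific genes were higher in YPD than in YPGal, by 0.40 to 1.82 on the log2 scale, and 0 of the 3 alpha-specific genes with a ratio were. In replicate 2 this held for 4 of the 5 a-specific genes with a ratio, STE6 being the exception. In the alpha-pattern replicate 3, MF(ALPHA)2 (1.80), SAG1 (1.43) and STE3 (0.76) were higher in YPD, while MF(ALPHA)1 was at -0.08 and the a-specific genes lay between -0.60 and 0.06, 5 of 6 of them lower. Of the alpha-specific genes, 3 of 4 thus had the same sign in WT replicate 3 as in H3i, and MF(ALPHA)1 did not. In WT replicates 1 and 2 the 3 with a ratio were all lower in YPD. The a-specific genes were mixed in H3i, with 2, 4 and 3 of 6 higher in YPD in replicates 1, 2 and 3. In WT replicate 3 they were at 22.7 CPM or less, so their signs there carry little weight. In WT libraries of either mating pattern the class that was on included genes with a higher level in YPD.

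No member was called in the WT comparison: the count was 0 of 10 in the planned edgeR fit, with 0 at an unadjusted p under 0.05, and 0 by DESeq2. The same fit called 0.0944% of all genes higher and 0.677% lower, and with strain-and-replicate pairs, which also called 0 members and had 2 at an unadjusted p under 0.05, the shares were 0.110% and 0.567%. Without both WT libraries of replicate 3, 3 a-specific genes were called higher, beside 2.29% of all genes higher and 5.61% lower. They were STE2 (2.06 ± 0.47, edgeR adjusted p = 0.0282), BAR1 (2.01 ± 0.39, 0.0141) and MFA2 (1.46 ± 0.37, 0.0426). In that fit each WT group is 1 library, assumed to vary like the H3i groups.

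**Figure D3:**
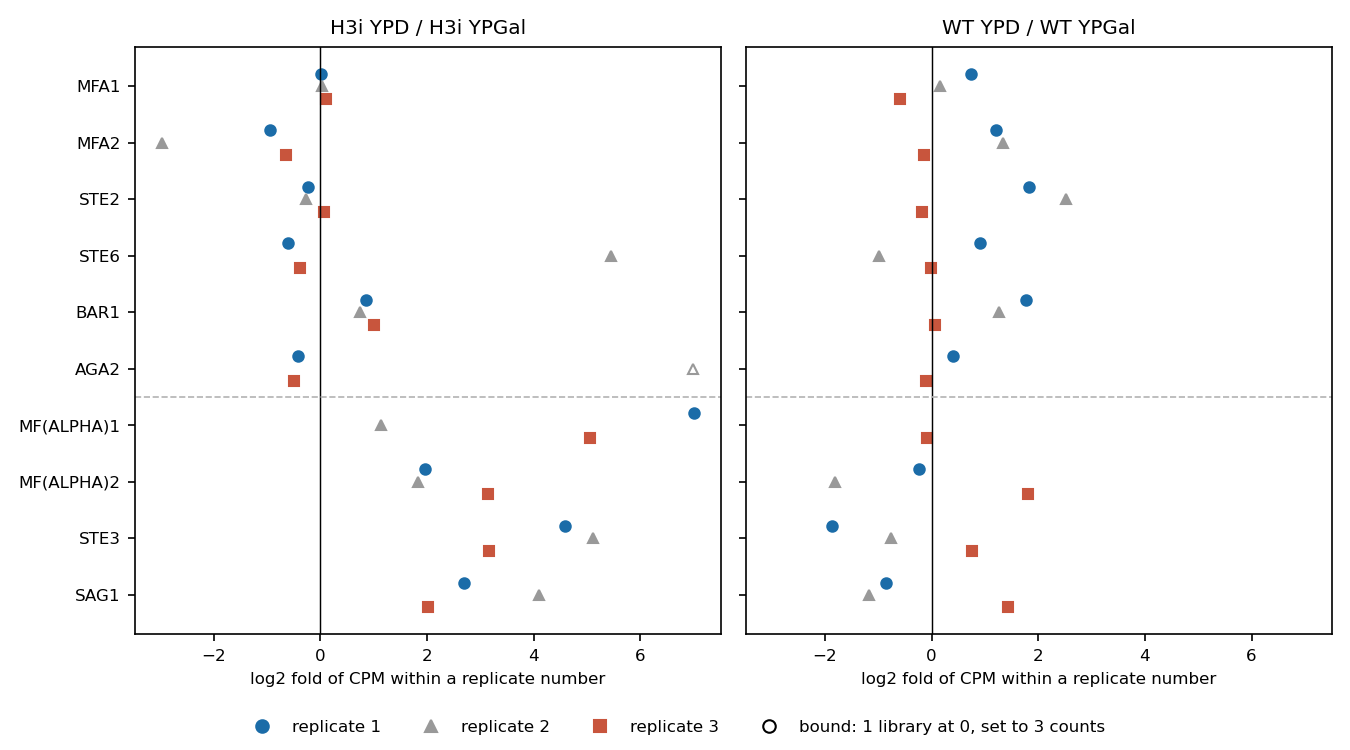
Log2 ratio of CPM in YPD to YPGal within each replicate number for the 10 genes, H3i on the left and WT on the right; the dashed line parts a-specific (above) from alpha-specific genes. All 12 H3i points of the alpha-specific genes lie right of 0, between 1.13 and 7.01, while WT points of these genes lie on both sides, and pairs with both libraries at or under 3 counts are not drawn.

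The difference of the H3i and WT responses asks whether the change in YPD is particular to the strain that loses H3. The planned fit called 13.1% of all genes higher and 14.5% lower in this interaction and 0 of 10 members, with 1 member, MF(ALPHA)1, at an unadjusted p under 0.05 and 0 members called by DESeq2. With strain-and-replicate pairs 12.6% of all genes were called higher and 13.6% lower, and 4 members were called. MF(ALPHA)1 was higher by 5.24 ± 0.81 (edgeR adjusted p = 0.0108) and STE3 by 3.14 ± 0.71 (0.0199), while MFA2 fell by 2.03 ± 0.52 (0.0293) and STE6 by 1.53 ± 0.46 (0.0440). For these 4 genes the response of H3i therefore differed from the pooled WT response beyond the spread left within pairs. That WT response pools a pair with the a pattern and a pair with the alpha pattern, so strain and mating pattern are not fully separated. For MF(ALPHA)1 the WT response rested on replicate 3, since WT replicate 1 had 0 CPM in YPD and 0.792 CPM in YPGal. MF(ALPHA)2 (0.999 ± 0.655), SAG1 (1.41 ± 0.64) and the other 4 a-specific genes (-1.50 to -0.60) were not called. Leaving out 1 pair leaves its strain with a single pair, and the spread then comes from the other strain alone (1 residual degree of freedom), so that the calls are no check on the strain left with 1 pair. The share of all genes called also moved between these fits, so their counts of members called are not compared. By sign, 2 of 10 members were opposite to the planned fit without the WT pair of replicate 1. Without each of the other pairs 0 of 10 were. MFA2 and STE6 were the calls lost without either pair of replicate 1. In the planned fit, which did not call them, MFA2 (-2.37) and STE6 (-1.75) changed sign without WT YPD replicate 1, to 2.94 and 0.76, and without H3i YPGal replicate 3, to 1.98 and 0.14. Without both WT libraries of replicate 3 the count was 9 of 10, with all 6 a-specific genes lower and 3 alpha-specific genes higher, beside 13.5% of all genes higher and 15.0% lower. MF(ALPHA)2 was the member not called there (2.21 ± 0.94, edgeR adjusted p = 0.106).

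H3i YPD against WT YPD gave opposite signs by replicate number. In replicate 1 the a-specific genes were lower in H3i YPD in 6 of 6 cases, by 0.06 to 1.59 on the log2 scale, and the alpha-specific genes higher in 4 of 4. Replicate 2 had the alpha-specific genes higher in 4 of 4 cases and the a-specific genes higher in 5 of 6, among them AGA2, MFA2 and STE6, which were near 0 in WT YPD. In replicate 3 the a-specific genes were higher in 6 of 6 cases, by 3.33 to 6.41, and the alpha-specific genes lower in 4 of 4, by 1.21 to 4.47. The planned fit called 26.0% of all genes higher, 23.7% lower and 0 of 10 members, with 0 members at an unadjusted p under 0.05 and 0 by DESeq2. Calls after leaving out 1 library went in opposite directions. Without WT YPD replicate 1, STE2 (4.53) and BAR1 (3.83) were called higher. MF(ALPHA)1 was called lower without H3i YPD replicate 1 (-4.92) and higher without H3i YPD replicate 3 (5.85), and SAG1 higher without WT YPD replicate 3 (2.49). Without both WT libraries of replicate 3, which leaves 1 library in each WT group, the fit called 7 members, beside 21.1% of all genes higher and 20.4% lower. Those higher in H3i YPD were MF(ALPHA)1, STE3 (4.65 ± 0.69, edgeR adjusted p = 0.00111) and SAG1 (2.84 ± 0.35, 0.000688). WT YPD had no MF(ALPHA)1 count in replicate 1, where H3i YPD was at least 41.4-fold higher against a floor of 3 counts in that library. Those lower were MFA2 (-2.11 ± 0.34, edgeR adjusted p = 0.00155), STE6 (-1.78 ± 0.36, 0.00367), STE2 (-1.41 ± 0.42, 0.0231) and MFA1 (-0.97 ± 0.29, 0.0221).

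In galactose, where H3 is made in both strains, the members showed the mating pattern of each library and no call. The a-specific genes were higher in H3i YPGal by 0.29 to 1.17 on the log2 scale in replicate 1 and by 3.71 to 6.91 in replicate 3. The alpha-specific genes with a ratio lay between -0.92 and 0.14 in replicate 1 and lay between -9.59 and -1.80 in replicate 3. The planned edgeR fit called 0 of 10 members and 0% of all genes in either direction, with 1 member and 114 of 6354 genes at an unadjusted p under 0.05, and DESeq2 called 0 members. Without both WT libraries of replicate 3, 0 members were called, beside 0% of all genes higher and 0.0321% lower.

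Genes around the members in the pathway were read as well. The pheromone-induced genes of mating rose in H3i YPD: 6 of 7 were called higher and 0 lower than in H3i YPGal in the planned fit, beside 21.4% of all genes. PRM1, for membrane fusion of mating cells, rose by 3.21 ± 0.26 (edgeR adjusted p = 0.000795), and FIG2, an adhesin of mating cells, by 2.69 ± 0.32 (0.00185). FUS1, of cell fusion, rose by 2.23 ± 0.30 (edgeR adjusted p = 0.00226) and AGA1, which anchors Aga2 in the wall, by 2.69 ± 0.51 (0.00532). FUS1 had 112, 202 and 116 CPM in H3i YPD, against 20.5, 8.46 and 16.9 CPM in H3i YPGal. KAR4 was not called. The list's median was 2.69. In WT, fitted with strain-and-replicate pairs, FUS1 (1.20 ± 0.31) and AGA1 (1.47 ± 0.34) were also higher in YPD, though not called. PRM1 (-0.04 ± 0.27) and FIG2 (0.15 ± 0.24) were near 0 there. In the same fit the difference of the H3i and WT responses was called for PRM1 (3.23 ± 0.37) and FIG2 (2.57 ± 0.34). It was not called for FUS1 (1.03 ± 0.44) or AGA1 (1.25 ± 0.47).

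A list of 15 further genes of haploid cells held the pheromone cascade and also MCM1, RME1 and HO, which are not signalling genes. Of the 15, 8 were called lower and 1 higher in H3i YPD, beside 22.2% and 21.4% of all genes, with a median of -0.92. MCM1, RME1 and HO were among the 8. RME1, a repressor of meiosis, fell by 2.31 ± 0.26 (edgeR adjusted p = 0.00171), HO, the mating-type endonuclease, by 3.07 ± 0.36 (0.00179), and GPA1, the G protein alpha subunit, by 1.57 ± 0.26 (0.00364). STE11, a kinase of the pheromone cascade, rose by 1.72 ± 0.24 (edgeR adjusted p = 0.00228). HO was at 25.7, 30.6 and 32.9 CPM in H3i YPD, against 278, 2.25 and 137 CPM in H3i YPGal, so that replicate 2 ran the other way. Of 5 genes of the cascade shown by level, GPA1 was at 88.7 and 154 CPM in H3i YPD replicates 1 and 3, against 190 and 366 CPM in H3i YPGal. STE4 was at 119 and 140 CPM in H3i YPD, against 219 and 395 CPM in H3i YPGal. STE18 was at 17.0 and 12.5 CPM, against 38.4 and 29.8 CPM. STE5 was at 162 and 164 CPM in H3i YPD, against 103 and 127 CPM in H3i YPGal, and FUS3 at 89.6 and 72.5 CPM, against 164 and 173 CPM. GPA1, STE4, STE18 and FUS3 were called lower and STE5 was not called. In replicate 2 GPA1 was at 3.59 CPM in H3i YPD, against 2.12 CPM in H3i YPGal, and STE4 at 3.86 CPM in H3i YPD, against 2.59 CPM in H3i YPGal. Of the 6 genes that mature a-factor and the 3 that mature alpha-factor, 0 were called in this comparison by the planned edgeR fit.

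**Figure D4:**
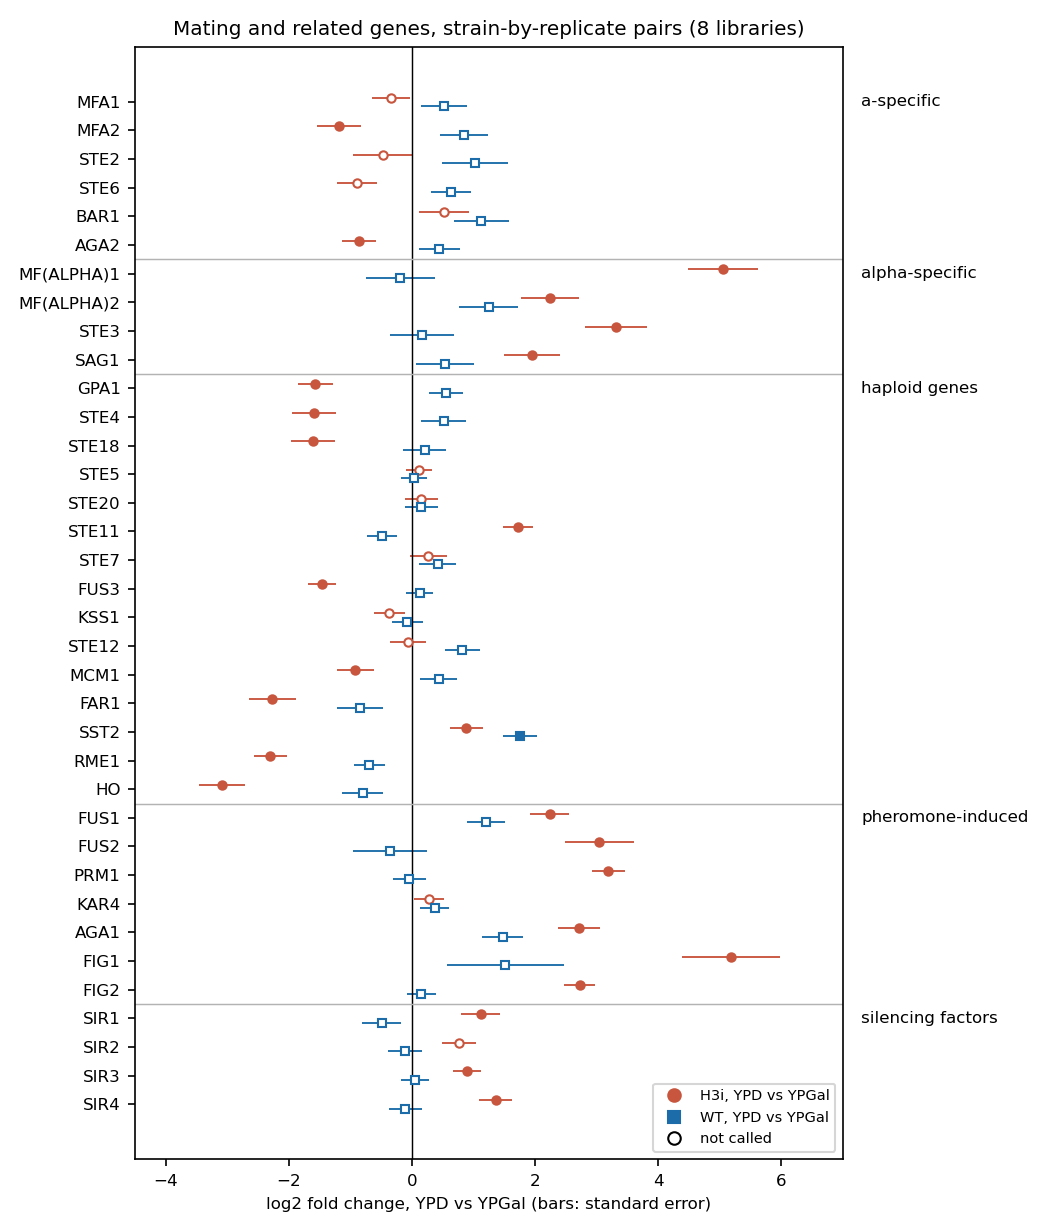
Log2 fold change of YPD against YPGal with its standard error (horizontal axis) for the members and 3 related lists, fitted with strain-and-replicate pairs on 8 libraries; circles are H3i, squares WT, open symbols were not called. In H3i the 4 alpha-specific and all 7 pheromone-induced genes lie right of 0, KAR4 not called among them, and in WT SST2 is the gene of these lists that was called.

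The mating-type loci themselves can be read only in part. MAT and HML hold the same alpha genes, so their reads align to more than 1 place, and alignments called not unique were 6.68% to 23.5% of all reads. MATALPHA1 and MATALPHA2 were at 0 to 0.210 CPM in all 12 libraries and HMLALPHA1 at 0 to 1.16 CPM, and HMLALPHA2 was read above 1 CPM in replicate 2 alone. Their levels say nothing here about alpha1 or alpha2. The a1 gene has 1 annotated copy, HMRA1, because the reference strain is MATalpha. HMRA1 stood at 14.7, 68.5 and 56.8 CPM in H3i YPD, against 37.2, 166 and 120 CPM in H3i YPGal. In WT it was at 29.4, 0.306 and 0 CPM in YPD, against 53.5, 247 and 0 CPM in YPGal. It was lower in H3i YPD in 3 of 3 replicates, a fall of 1.58 ± 0.34 that was called with strain-and-replicate pairs (edgeR adjusted p = 0.0119) and not in the planned fit. The Sir genes, whose products silence HML and HMR, were called higher in H3i YPD in 3 of 4 cases, beside 21.4% of all genes: SIR4 rose by 1.36 ± 0.25 (edgeR adjusted p = 0.00494), SIR3 by 0.90 ± 0.24 (0.0192) and SIR1 by 1.09 ± 0.36 (0.0417), and SIR2 was not called. SIR4 was at 196, 439 and 306 CPM in H3i YPD, against 75.1, 198 and 70.8 CPM in H3i YPGal. SIR3 was at 128, 0.171 and 192 CPM in H3i YPD, against 55.1, 0.580 and 75.2 CPM in H3i YPGal, near 0 in replicate 2.

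ASG7 and AFB1 are further genes of a and alpha cells. ASG7, an a-specific regulator of signalling, had 27.1, 34.8 and 47.9 CPM in H3i YPD, against 10.9, 3.66 and 25.7 CPM in H3i YPGal. AFB1, which encodes the a-factor barrier protein of alpha cells, had 52.4, 7.79 and 64.1 CPM in H3i YPD, against 23.4, 0.0446 and 34.2 CPM in H3i YPGal. In WT replicate 3 AFB1 had 269 CPM in YPD, against 186 CPM in YPGal. ASG7 had 6.70 CPM in YPD and 9.83 CPM in YPGal of WT replicate 3. In WT replicate 1 ASG7 had 8.65 and 8.71 CPM, so its level did not separate these WT libraries by mating pattern. ASG7 and AFB1 were higher in H3i YPD in each replicate number, and neither was called in the planned edgeR fit.

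Some genes outside the lists had a profile like the members' over the 8 libraries of replicates 1 and 3. The likeness is Pearson's r with the mean centred log2(CPM + 1) of a class, over 5783 genes, and is a description of libraries that share strain and kit. For the a-specific class the nearest were CAR1 (0.962), HSL7 (0.958), EPS1 (0.949), OCA1 (0.947) and SKI6 (0.945). CAR1 was at 57.4 CPM in WT YPD and 100 CPM in WT YPGal of replicate 3, and at 462 to 1131 CPM in the other 6 libraries. HSL7 was at 92.6 and 99.7 CPM there, against 115 to 124 CPM in the other 6, so a high r did not mean a large difference. For the alpha-specific class they were YBL005W-B (0.978), FET4 (0.963), YCL021W-A (0.945), HEM13 (0.933) and MET22 (0.928). FET4, an iron transporter, was at 740 CPM in WT YPD and 435 CPM in WT YPGal of replicate 3. It was at 183 and 229 CPM in H3i YPD, against 83.9 and 125 CPM in H3i YPGal.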

How the data were processed

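The authors deposited raw counts of reads per gene for each of 12 libraries. The 5 entries that name no gene were left out; their share of all reads was 22.0% to 33.7% in replicate 3. For replicate 1 that share ran from 27.5% to 38.6%, and replicate 2 stood apart at 66.3% to 74.5%. FastQC, HISAT2, SAMtools, Picard and DESeq2 with sacCer3 are named per the submitters' processing notes, without versions; no source used here names the counting tool or its strand setting. Per the labels' protocols, MagMax was the extraction kit of replicates 1 and 2 and Trizol that of replicate 3.

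CPM are counts scaled to 1000000 gene counts. The test was edgeR's quasi-likelihood test (version 4.0.16, R 4.3.3; TMM, filterByExpr, Benjamini-Hochberg over all genes tested, threshold 0.05) on the 8 libraries of replicates 1 and 3 with a term for the kit (3 residual degrees of freedom). DESeq2 1.42.0, other normalization, no filter, all 12 libraries, a replicate block, strain-and-replicate pairs and leaving out libraries were alternatives; all 12 libraries without both WT libraries of replicate 3, and pairs left out in turn, were added after the data were seen. The fit was tested on simulated data. Ratios within a replicate number put a library at 0 at a floor of 3 counts. Intervals of shares are Clopper-Pearson and cover counting error only.

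Equal replicate numbers were taken as pairs: deviations from group means over 5842 genes correlated at r = 0.375 to 0.818 in all 18 same-number pairs. Of 12 libraries, 8 correlated best with a library of their own number. Replicate 3 had its own kits, so these correlations do not show whether cultures of a number were paired. No libraries of a group were duplicates. Coordinates, lengths and sequences come from RefSeq R64, which matched 6047 features. From the other lists, up to 4 called genes a list with the lowest adjusted p were named, and mating-type, silencing and haploid marker genes by level. FET4, CAR1 and HSL7 levels were chosen after seeing them. The members and lists were chosen with earlier results of these data known.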

Additional observations from a re-analysis of the deposited data

Results flagged for a closer look

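For 4 of the 10 members the response to YPD differed between the strains by the test of that difference. The fit had a term for each strain-and-replicate pair on 8 libraries (edgeR, log2, H3i response minus WT response). It called 12.6% of all genes higher and 13.6% lower, and the planned fit did not call these 4 members. MF(ALPHA)1 differed by 5.24 ± 0.81 (edgeR adjusted p = 0.0108): its ratio of YPD to YPGal was 129 and 33.0 in H3i replicates 1 and 3, against 0.944 in WT replicate 3. STE3 differed by 3.14 ± 0.71 (edgeR adjusted p = 0.0199), with ratios of 23.9 and 8.93 in H3i, against 0.273 and 1.70 in WT. MFA2 differed by -2.03 ± 0.52 (edgeR adjusted p = 0.0293), with ratios of 0.520 and 0.641 in H3i, against 2.32 and 0.907 in WT. STE6 differed by -1.53 ± 0.46 (edgeR adjusted p = 0.0440), with ratios of 0.656 and 0.763 in H3i, against 1.88 and 0.996 in WT. The WT pairs of replicates 1 and 3 had opposite mating-type patterns.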

How the results depend on the processing

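The H3i medium comparison called 1 member as planned. With all 12 libraries under the kit term it called 0, where 0% of all genes were called higher and 0.0624% lower, so that this count says nothing about the members. With all 12 it also called 0 with a replicate block (2.89% and 4.96% of all genes), 0 with strain-and-replicate pairs (0.281% and 2.22%) and 0 without both WT libraries of replicate 3 (0% and 0.0611%), and 0 on 8 libraries without a kit term or replicate block (9.40% and 9.22%). It called 2 with DESeq2 (23.3% and 23.1%), 2 with library totals (31.9% and 13.8%) and 2 without a filter (1372 and 1440 of 6856 genes). The count was 6 with strain-and-replicate pairs on 8 libraries (21.3% and 21.7%) and 7 with only the groups compared (24.4% and 24.0%). Leaving out 1 library, or both WT libraries of replicate 3, leaves 1 library in a group, so those counts are not compared. Leaving out 1 pair leaves 1 pair for its strain, so counts of members called are not compared there either. Without H3i replicate 1 or H3i replicate 3, 1 H3i pair is left and the WT pairs alone give the spread. By sign, 0 of 10 members were opposite to the planned fit without each of the WT and H3i pairs. The WT comparison called 0 as planned (0.0944% of all genes higher and 0.677% lower). Without WT replicate 3 each WT group is 1 library, so that count is not compared. The difference of the responses called 0 as planned, 4 with the pairs as a block, 9 without both WT libraries of replicate 3, 0 to 2 when 1 library was left out, and 2, 9, 2 and 3 with pairs without WT replicate 1, WT replicate 3, H3i replicate 1 and H3i replicate 3. H3i YPD against WT YPD called 0 as planned (26.0% of all genes higher and 23.7% lower), and H3i YPGal against WT YPGal 0 (0% and 0%). Their counts after leaving out libraries are not compared. In H3i YPD against WT YPD, MF(ALPHA)1 was at -4.92 without H3i YPD replicate 1 and at 5.85 without H3i YPD replicate 3.

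In the H3i comparison MFA2 turned to 3.11 and AGA2 to 1.73 without H3i YPGal replicate 3 (ranges over libraries left out -5.56 to 3.11 and -3.43 to 1.73), and AGA2 to 2.55 with all 12 libraries and a replicate block and 0.67 with all 12 in pairs. In the difference of the responses MFA2 turned to 2.94 without WT YPD replicate 1 and 1.98 without H3i YPGal replicate 3 (range -6.70 to 2.94), and STE6 to 0.76 and 0.14 without these libraries (range -3.79 to 0.76), 1.11 with all 12 and a replicate block and 0.42 with all 12 in pairs. The 4 alpha-specific genes kept their sign in the H3i comparison under all 24 alternatives. MF(ALPHA)1 ranged from 4.07 to 15.24 there, with edgeR or DESeq2 adjusted p from 0.000124 to 0.612. The cause of these moves was not tested. In replicate 1, which had the lowest totals, MF(ALPHA)1 rested on 1 count in H3i YPGal.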
